A study of Homo sapiens with 6 samples.

Results

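The S100 calcium-binding proteins were followed through their transcripts in RNA-seq of breast cancer stem-like cells (BCSC) in which the long non-coding RNA LINC00115 was knocked down. The set held 10 genes (S100a1, S100a3, S100a4, S100a6, S100a8, S100a9, S100a10, S100a11, S100a13 and S100a16), each taken as the row of the count table that bears its symbol, out of 22989 rows in all. All 10 passed the filter on low counts, which kept 13497 rows for testing. S100a9 passed it only through the knockdown libraries, so a higher value there was built into its selection. Both groups were labelled as paclitaxel (PTX)-resistant BCSC of MDA-MB-231, an established human triple-negative breast cancer line. WT samples were compared with LINC00115 KD samples, whose column names (sh115) match the study's name for its shRNAs against LINC00115, with 3 libraries in each group. The labels do not say whether the WT samples carried a control shRNA. In the study these cells were obtained by sorting the resistant line for high aldehyde dehydrogenase activity. Nothing in the labels says that the libraries of a group came from separate cultures, so p-values measure only the spread between these libraries, which may be technical.

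Several facts about the libraries bear on all that follows. Each held between 36979221 and 38799331 counts. No row matched the name LINC00115, so the knockdown itself could not be checked and the direction of each comparison rests on the labels. Row names followed mouse style although the samples were labelled human: 4648 rows were named Gm followed by digits and 1129 ended in Rik, forms used for mouse gene models, and these rows held 0.224% to 0.284% and 0.512% to 0.567% of a library's counts. Rows under the mouse symbols Oas1a and Oasl2 held 2921 to 11170 and 3885 to 20874 counts in a library. The counts may therefore be of mouse sequence, which goes against the labelled cell line. The species was not tested against sequence. Roles given here for S100 genes are those known for the family in mammals. Among markers of the labelled cells, Vim and Cd44, both typical of this mesenchymal-like line, averaged 3418 and 911 CPM in WT (CPM, counts scaled to a common library size). Of the other mesenchymal markers, Fn1 and Axl averaged 2648 and 731 CPM in WT. In contrast, Zeb1 averaged 0.75 CPM and Cdh2 had at most 1 count in a WT library. Of the luminal breast markers, Gata3 averaged 95.8 CPM in WT, and Esr1, Pgr and Foxa1 at most 1.20 CPM. Epcam, an epithelial surface marker, had at most 1 count in a WT library and the keratin Krt19 at most 7, whereas the keratins Krt8 and Krt18 averaged 472 and 129 CPM in WT and were higher in KD (752 and 236 CPM). Of the aldehyde dehydrogenase genes, Aldh1a1 had 8 to 17 counts in WT and 39 to 52 in KD, while Aldh1a3 had at most 4 counts in any library. In the list of 20 identity markers, 13 were tested, 8 were higher in KD and 3 lower at the adjusted p threshold. Over all tested genes, 36.7% were higher and 36.7% lower. Of those higher, Cdh1 and Krt7 passed the filter only through KD, and Aldh1a1 would not have passed it through WT alone. The WT replicate 3 library had the most genes counted in it alone: 17 genes had at least 10 counts in it and at most 1 count in every other library, against 8 to 12 such genes in each of the other libraries. Those 17 genes, looked up after their values were seen, included the squamous keratins Krt4 (238 counts), Krt5 (92) and Krt6b (63) and the cornified envelope gene Lor (52).

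S100 proteins are small proteins that carry a pair of EF-hands, the helix-loop-helix motif that binds calcium, and most work as dimers. Calcium binding opens a hydrophobic face through which the dimer grips a partner such as an annexin, a myosin tail or a cytoskeletal scaffold, and some members are also released from the cell and act on receptors such as RAGE (Ager) and Tlr4. Most of the family lies in a cluster on human chromosome 1, split by the epidermal differentiation complex, a block of genes for the cornified skin surface. Several members are well known in breast cancer, S100A4 for its link to metastasis above all.

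The 10 genes did not move as a group. At a Benjamini-Hochberg adjusted p under 0.05 by edgeR's quasi-likelihood test, 6 were lower in LINC00115 KD, 3 were higher and S100a10 did not pass. Over all tested genes, 36.7% were lower and 36.7% were higher by the same threshold. With the study's added requirement of a fold change over 2, S100a3 and S100a4 were called lower, against 9.98% of all tested genes, and S100a8, S100a9 and S100a16 were called higher, against 10.2%. In 9 of the 10 genes the WT and KD libraries did not overlap, which was also true of 75.6% of all tested genes. The median log2 fold change was -0.31 over the 10 genes and -0.01 over all tested genes. Summed over the 10 genes, the level was 2756 to 2892 CPM in WT and 2081 to 2100 CPM in KD, with means of 2831 ± 68.9 and 2089 ± 10.2 CPM (SD, n = 3). The loss of S100a4 and S100a6 (444 and 247 CPM) made up most of that fall of 742 CPM, and the largest gain was that of S100a8, at 62.2 CPM. These are bulk samples, in which fewer cells of a type and less RNA per cell cannot be told apart.

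**Figure D1:**
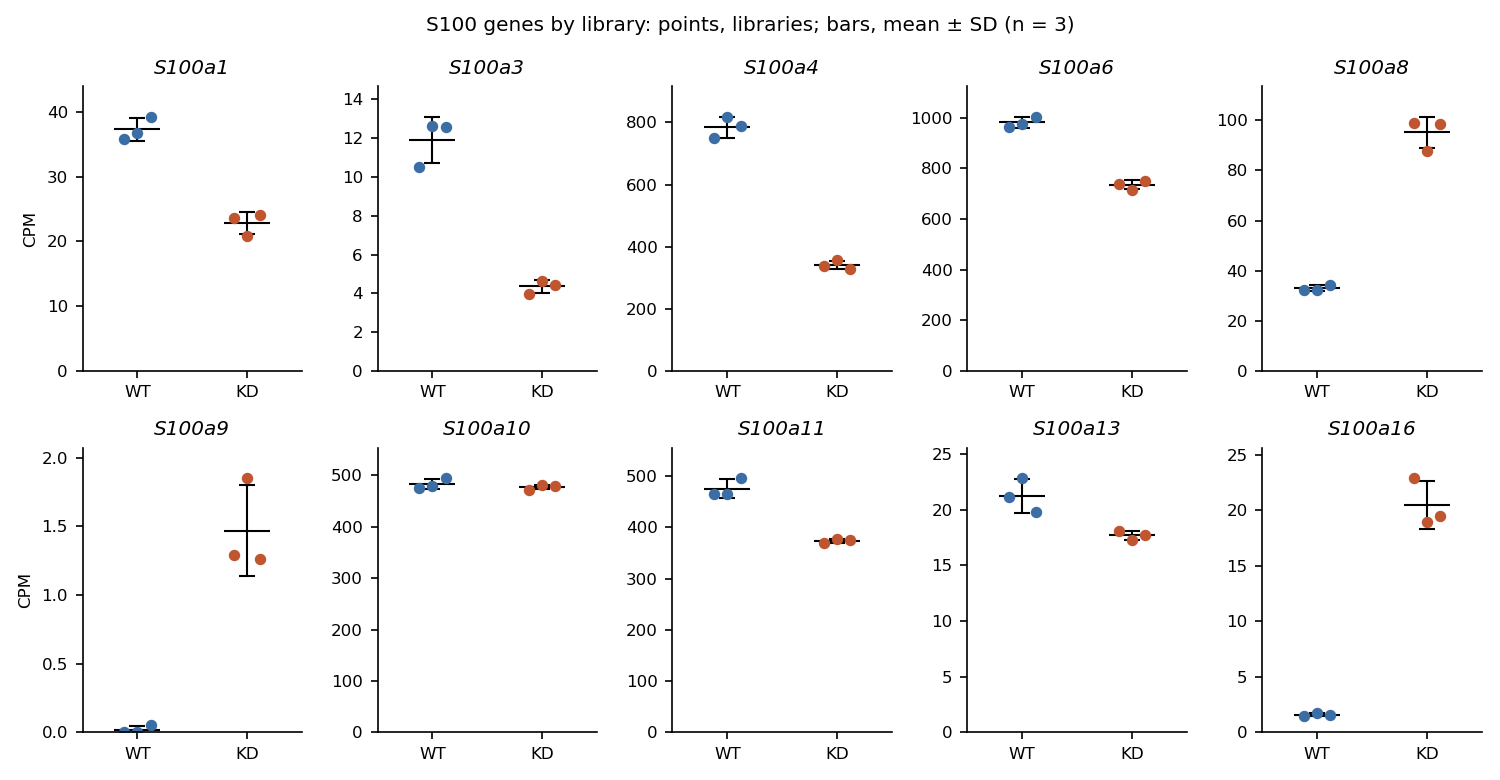
Each panel plots the level of one S100 gene in CPM, normalised by the trimmed mean of M values, from 0 on its own linear axis, with points for the 3 WT and 3 LINC00115 KD libraries and bars for mean ± SD (n = 3). S100a8, S100a9 and S100a16 rose, S100a10 overlapped between the groups, and the other 6 were lower in every KD library than in any WT library.

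Among the members that bind the cytoskeleton, S100a4 (metastasin), which binds the tail of non-muscle myosin IIA and disassembles its filaments, fell the most in CPM. Its counts were 28209, 30830 and 29810 in WT and 13012, 13074 and 12501 in KD. The KD libraries therefore lay within a narrow band far below the WT ones. Levels of 784.8 ± 34.14 and 340.6 ± 13.96 CPM (SD, n = 3) gave a log2 fold change of -1.20 (SE 0.04, adjusted p = 1.4e-25), or 2.30-fold lower. S100a3, a cysteine-rich member best known from the hair cuticle, had 396, 476 and 476 counts in WT and 154, 171 and 168 in KD. With some 2.73-fold less RNA in KD (log2 fold change -1.45, SE 0.13, adjusted p = 1.0e-11), it had the largest relative fall of the 10, although its interval (-1.72 to -1.18) reached that of S100a4 (-1.28 to -1.13).

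S100a6 (calcyclin), which binds the calcyclin-binding protein Cacybp and several annexins, had 36333, 36871 and 37968 counts in WT and 28531, 26294 and 28514 in KD. All KD libraries were lower, by 1.34-fold (982 ± 20.7 to 735 ± 17.4 CPM, log2 fold change -0.42, SE 0.03, adjusted p = 2.3e-14). S100a4 and S100a6 lie in one stretch of the cluster and both fell, but not in proportion. The ratio of S100a4 to S100a6 counts within a library was 0.776, 0.836 and 0.785 in WT and 0.456, 0.497 and 0.438 in KD. No KD ratio came near a WT ratio, and the exact two-sided permutation test gave p = 0.1, the smallest that 3 libraries against 3 allow.

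S100a1, known from striated muscle for its action on calcium release, had 1352, 1387 and 1485 counts in WT and 915, 765 and 913 in KD, or 1.63-fold less (log2 fold change -0.71, SE 0.07, adjusted p = 8.9e-11). S100a13, which takes part in the release of FGF1 and interleukin 1α without a signal peptide, had 797, 863 and 747 counts in WT and 701, 634 and 673 in KD. The groups lay close together without overlapping, and the log2 fold change of -0.26 (SE 0.08, adjusted p = 0.0053) was the smallest that passed. Neighbouring S100 genes can overlap, and neither the annotation nor the strand setting of the counting is given in the sources used here, so how reads shared by such genes were counted is uncertain.

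S100a10 and S100a11 are the annexin partners at the far end of the cluster, and their transcripts behaved differently. S100a10 (p11), which has lost calcium binding and joins Anxa2 in a heterotetramer at the plasma membrane, had 17930, 18101 and 18686 counts in WT and 18242, 17631 and 18202 in KD. WT and KD values were interleaved. Its log2 fold change of -0.02 (SE 0.03, adjusted p = 0.60) had a 95% interval of -0.08 to 0.05. S100a11, a partner of Anxa1, had 17559, 17551 and 18759 counts in WT and 14303, 13856 and 14273 in KD. The fall was small but larger than the spread, at 1.27-fold (log2 fold change -0.35, SE 0.03, adjusted p = 2.7e-11).

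S100a8 and S100a9 together form calprotectin, an abundant protein of neutrophils and inflamed epithelium that starves microbes of zinc and manganese. S100a8 had 1213, 1219 and 1300 counts in WT and 3831, 3226 and 3746 in KD. Every KD library was well above every WT library, with levels of 33.0 ± 1.25 and 95.2 ± 6.33 CPM (SD, n = 3), a rise of 2.89-fold (log2 fold change 1.53, SE 0.06, adjusted p = 7.1e-23). Its dimer partner S100a9 was almost uncounted in WT, at 0, 0 and 2 counts, and had 50, 68 and 48 counts in KD. The 2 WT counts both came from replicate 3, the library with the squamous genes, and without it S100a9 had no count in WT. Summed over libraries, 166 against 2 counts gave a ratio of 82.9 scaled for depth, with an exact 95% interval of 22.6 to 690 that covers counting error only. The test called it higher (adjusted p = 6.1e-09), but its fitted log2 fold change of 6.13 depends on the count added to avoid zeros and is no measure of size.

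The calprotectin pair was therefore counted unequally in both groups. In WT replicates 1 and 2, where S100a9 had no count, the ratio of S100a8 to S100a9 counts was at least 404 and 406, taking S100a9 at 3 counts, the level that a count of 0 still allows. WT replicate 3, with its 2 counts, had a ratio of 650 with an exact 95% interval of 180 to 5370. In KD the ratio was 76.6, 47.4 and 78.0, and the highest upper limit of the KD intervals was 106. These intervals cover counting error only, and the difference between the groups was not tested because WT gave bounds. Counts were not corrected for transcript length, so the ratio can be compared between libraries but does not give the molecules of each transcript.

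S100a16, a widely expressed member, had the largest fold change among the well-counted genes. Its counts were 57, 67 and 58 in WT and 886, 695 and 740 in KD. The lowest KD library was about an order of magnitude above the highest WT library, and levels of 1.61 ± 0.15 and 20.4 ± 2.15 CPM (SD, n = 3) gave a rise of 12.7-fold (log2 fold change 3.67, SE 0.14, adjusted p = 1.2e-22).

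**Figure D2:**
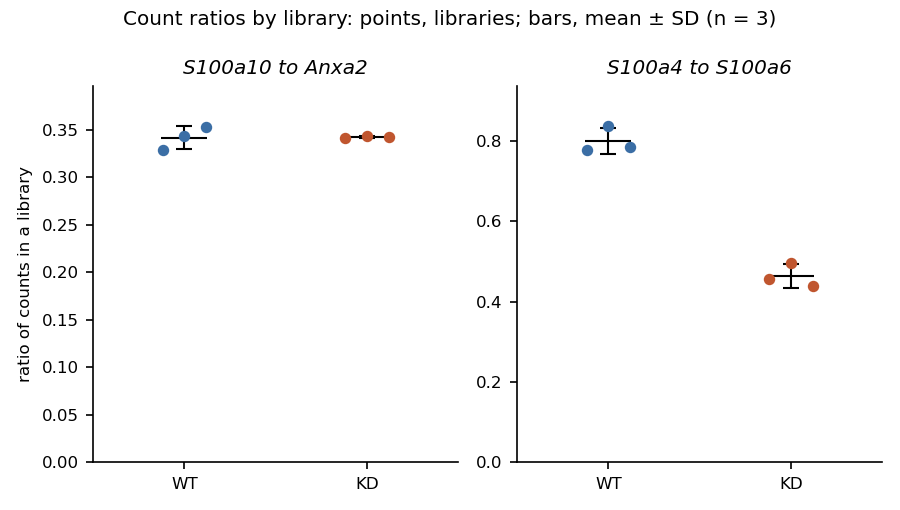
Each panel plots the ratio of 2 genes' counts within a library, with points for the 3 WT and 3 LINC00115 KD libraries and bars for mean ± SD (n = 3). The ratio of S100a4 to S100a6 was lower in every KD library, at 0.438 to 0.497, while that of S100a10 to Anxa2 overlapped between the groups.

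As the members changed unequally, so did their shares of the summed S100 level. S100a4 went from 27.7% to 16.3% of the sum and S100a8 from 1.16% to 4.56%. S100a10, with no change in level past the threshold, went from 17.1% to 22.8%, and S100a6 stayed near the same share (34.7% and 35.2%). These shares are of counts, not of molecules.

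Of 11 other names looked up (the remaining S100 genes and S100pbp, which encodes an S100P-binding protein), 7 matched a row. S100a7a, a relative of psoriasin, a skin protein induced in inflammation, had 697, 640 and 695 counts in WT and 1720, 1650 and 1759 in KD. It rose clear of the spread, from 17.9 ± 0.86 to 45.2 ± 0.96 CPM (log2 fold change 1.33, SE 0.07, adjusted p = 1.4e-18). S100pbp fell from 65.7 ± 1.79 to 32.3 ± 3.19 CPM (log2 fold change -1.03, adjusted p = 1.3e-16), and was under 2-fold without KD replicate 1 (-0.997) or KD replicate 2 (-0.960). S100a14 had 14, 13 and 34 counts in WT and 9, 23 and 27 in KD, with no difference past the threshold (log2 fold change -0.04, and 0.54 without WT replicate 3, adjusted p = 0.48). The other 4 were too low to test. S100a5 had 7, 16 and 5 counts in WT and 0, 1 and 1 in KD, a ratio of WT to KD of 14 with an exact 95% interval of 3.54 to 121 for counting error. S100g, a calcium-binding protein of gut and kidney, had 4, 6 and 7 counts in KD and no count in WT. S100a2 had at most 4 counts and S100b at most 1 in any library.

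Read along human chromosome 1, where all 10 genes lie in the RefSeq annotation (GRCh38.p14, used here only for the order of genes), the members fell into runs. S100a9, S100a8 and S100a7a stand side by side apart from family members that matched no row, and all of them rose. S100a6, S100a4 and S100a3 follow, with S100a5 between the first pair, and all tested genes of that stretch fell. S100a16 rose beyond them, with S100a2, too low to test, in between. S100a14, which did not pass (log2 fold change -0.04), comes next, and S100a13 and S100a1 at the end fell. The order is a description, as genes of a cluster are not independent of each other. Among 23 tested genes that flank the S100 clusters, 12 were lower and 6 higher at the adjusted p threshold, with a median log2 fold change of -0.17. The shares over all tested genes were 36.7% lower, 36.7% higher, 9.98% called lower and 10.2% called higher. Atp8b2, a phospholipid flippase gene, was called lower (241.7 to 116.4 CPM, log2 fold change -1.05, adjusted p = 1.1e-22), as was the sparse Riiad1 (-1.18, adjusted p = 0.025). None of the 23 was called higher.

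**Figure D3:**
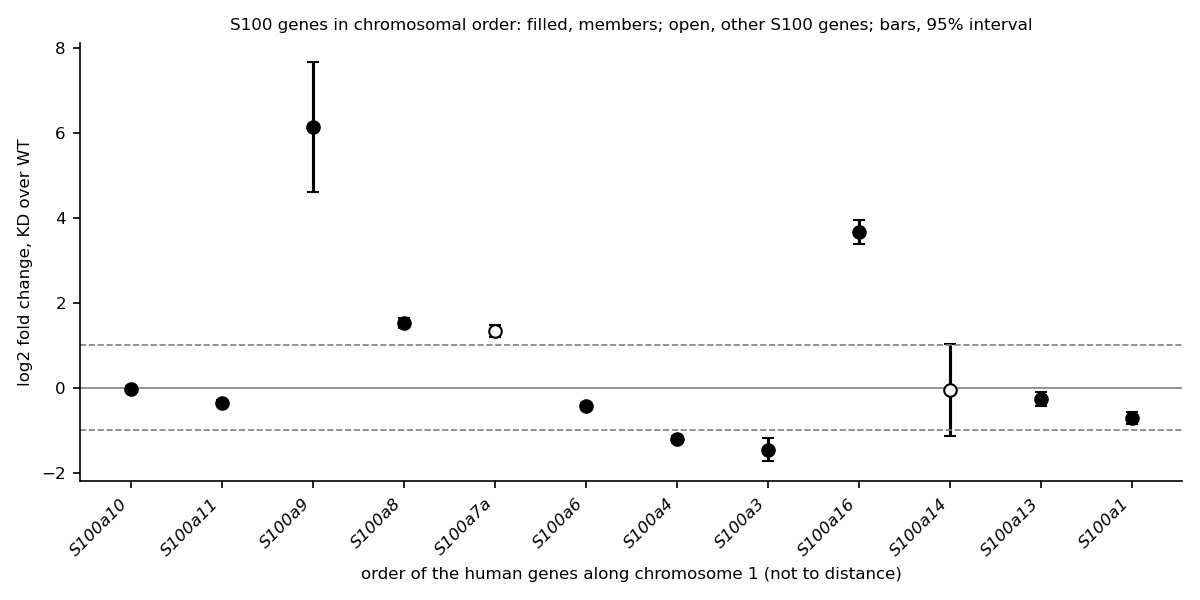
Points give the log2 fold change of LINC00115 KD over WT for each tested S100 gene, in the order of the human genes along chromosome 1 and not to distance, with 95% intervals as bars and the 2-fold limits dashed. Filled points are the 10 genes and open points other S100 genes. S100a9, S100a8 and S100a7a lie above the upper limit side by side, S100a4 and S100a3 lie below the lower one, and the value of S100a9 depends on the prior count.

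Between the S100 clusters lies the epidermal differentiation complex. Of 52 of its genes looked up, 34 matched a row, 30 were too low to test and 6 had no count in any library. All 4 that were tested were called higher, against 10.2% of all tested genes. They passed the filter only through KD, so a higher value was built into their selection and these calls are a description. Crct1, a cysteine-rich epithelial gene, had 1, 0 and 3 counts in WT and 133, 101 and 110 in KD (adjusted p = 1.8e-12). Sprr1a, a small proline-rich cornified envelope gene, had 1, 1 and 2 counts in WT and 13, 27 and 21 in KD. Lce1g had 6, 8 and 6 against 18, 24 and 52 counts. Lce3f had 7, 1 and 5 against 18, 25 and 12 counts, and did not pass without WT replicate 2 (adjusted p = 0.060) or KD replicate 2 (adjusted p = 0.05002). WT replicate 3 alone held counts of Rptn (34), Sprr3 (18) and Crnn (10), with at most 1 count elsewhere. Without that library 2 of the 10 S100 genes were still called lower and 3 higher.

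None of the 23 tested binding partners other than annexins was called by the 2-fold rule, where 10.2% of all tested genes were called higher and 9.98% lower. At the adjusted p threshold 9 were lower and 10 higher, against 36.7% each way over all tested genes, with a median log2 fold change of -0.01. Myh9, the non-muscle myosin heavy chain that S100A4 binds, rose slightly while S100a4 fell (2279 to 2599 CPM, log2 fold change 0.19, adjusted p = 8.1e-08). Cacybp, the partner of S100A6, rose from 93.7 to 129 CPM (log2 fold change 0.47, adjusted p = 1.1e-09) while S100a6 fell. Ahnak, a giant scaffold that holds the S100A10 and annexin A2 complex, rose from 1148 to 1626 CPM (log2 fold change 0.50, adjusted p = 2.2e-16). Other partners fell, among them Pgm1 (phosphoglucomutase, log2 fold change -0.90), Hltf (-0.70), Tmod3, an actin filament capping gene (-0.59), and Sugt1, which also binds S100A6 (-0.41), all past the adjusted p threshold. Fgf1 and Il1a, the cargo released with S100A13, were low and did not pass (log2 fold changes of 0.06 and -0.02, adjusted p of 0.81 and 0.96).

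Of 10 tested annexins, calcium-dependent membrane-binding proteins, 6 were higher and 2 lower, against 36.7% each way over all tested genes. By the 2-fold rule 1 was called, where 10.2% of all tested genes were called higher and 9.98% lower. Anxa8 rose from 27.6 ± 2.29 to 181 ± 3.09 CPM (log2 fold change 2.71, SE 0.05, adjusted p = 2.7e-31). Anxa1, the partner of S100A11, and Anxa2, the partner of S100A10, did not pass (log2 fold changes of 0.05 and -0.02). Anxa6 had a log2 fold change of -0.19 and Anxa11 of 0.29, both past the threshold. The ratio of S100a10 to Anxa2 counts was 0.329, 0.344 and 0.352 in WT and 0.342, 0.343 and 0.342 in KD. The KD values lay inside the WT range, with means of 0.342 ± 0.012 and 0.343 ± 0.00072 (SD, n = 3, exact permutation p = 1).

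Among 15 receptors and adaptors described for S100 proteins, all tested, 10 were higher, 2 lower, 4 called higher and 1 called lower. Over all tested genes, 36.7% were higher, 36.7% lower, 10.2% called higher and 9.98% called lower. Of those called higher, Cd36 had 5, 2 and 4 counts in WT and 26, 18 and 41 in KD, and passed the filter only through KD. Bsg (CD147), a receptor described for S100A9, had the largest fall in CPM among the receptors named here (936 ± 37.2 to 416 ± 16.9 CPM, log2 fold change -1.17, SE 0.03, adjusted p = 1.4e-25). Tlr4, a receptor of calprotectin, did not pass (37.2 and 35.3 CPM, log2 fold change -0.08, adjusted p = 0.29), but its co-receptor Cd14 rose from 15.7 to 50.9 CPM (log2 fold change 1.70, adjusted p = 6.7e-20). Alcam, an adhesion receptor, rose from 10.7 to 33.4 CPM (1.64, adjusted p = 1.5e-18). Ager, which encodes RAGE, was scarce, with 23, 24 and 26 counts in WT and 94, 63 and 69 in KD (log2 fold change 1.62, SE 0.36, adjusted p = 0.00017). RAGE is also a marker of alveolar cells, and values of lung genes follow below with the other tissue markers.

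**Figure D4:**
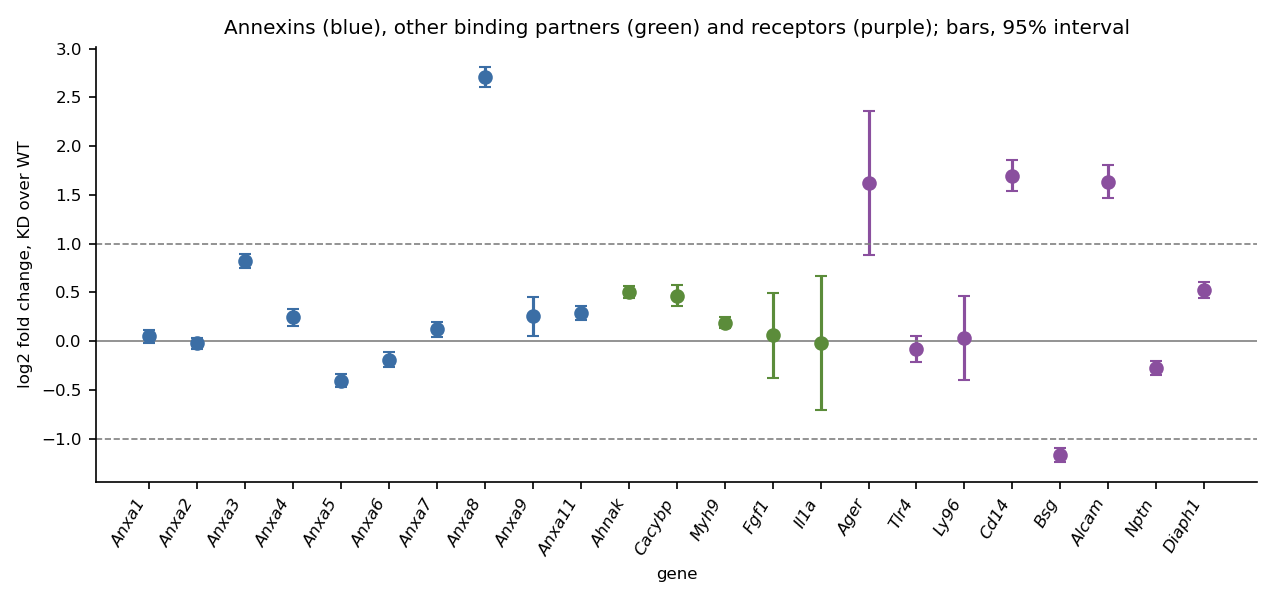
Points give the log2 fold change of LINC00115 KD over WT for annexins, other binding partners and receptors of S100 proteins, with 95% intervals as bars and the 2-fold limits dashed. Anxa8, Ager, Cd14 and Alcam lie above the upper limit and Bsg below the lower one, while Anxa1, Anxa2, Fgf1, Il1a, Tlr4 and Ly96 have intervals that cross 0.

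Outside the family, 26 other EF-hand genes were tested, of which 13 were lower and 3 higher, with a median log2 fold change of -0.14. Among all tested genes 36.7% were lower, 36.7% higher, 9.98% called lower and 10.2% called higher. The calmodulin genes Calm2 and Calm3 fell (-0.61 and -0.43 on the log2 scale, adjusted p of 2.3e-18 and 2.7e-13). Necab3, a neuronal calcium-binding gene, was the only one called (4.10 to 1.19 CPM, log2 fold change -1.78, adjusted p = 3.7e-07).

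Of 17 tested acute phase and antimicrobial genes, 15 were higher, 11 were called higher and none was lower, with a median log2 fold change of 1.99. Most encode secreted products that epithelia and myeloid cells make together with calprotectin, but the median was that of the keratin gene Krt16. Defb1 passed the filter only through KD, and Lbp, Orm1, Wfdc18 and Pglyrp1 would not have passed it through WT alone. A higher value was thus built into their selection, and these calls are a description. Cxcl5 (log2 fold change -0.05, adjusted p = 0.22) and Il1b (0.95, adjusted p = 0.091) did not pass. With upper quartile scaling, or without WT replicate 1, 1 gene of the list was lower. Named by size of change were Lbp, the lipopolysaccharide-binding protein (0.60 to 14.3 CPM), Orm1 (0.38 to 7.65 CPM) and Hp, haptoglobin (0.54 to 9.46 CPM). Saa3, a serum amyloid, rose from 4.70 to 27.4 CPM and the neutrophil chemokine Cxcl2 from 4.31 to 20.98 CPM. Wfdc18 was much scarcer, at 0.14 and 1.36 CPM. The summed level of the list was 3147 to 3295 CPM in WT and 6124 to 6616 CPM in KD. Of the pathway lists, all 15 hypoxia genes fell, 12 of them by over 2-fold (Bnip3, a mitophagy receptor, 460 to 105 CPM). All 18 tested interferon response genes rose, 17 of them by over 2-fold (Rsad2, an antiviral gene, 9.43 to 359 CPM). Over all tested genes, 36.7% fell and 36.7% rose at the adjusted p threshold, and 9.98% and 10.2% were called lower and higher. The lists were chosen with earlier results of these data known, so their counts are a description. The relation of these lists to the S100 genes was not tested.

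Markers of cells that hold much calprotectin were read beside S100a8 and S100a9. All 25 neutrophil, monocyte and macrophage genes matched a row, only 8 were tested, 5 of them were called higher and none was lower. Over all tested genes, 10.2% were called higher. Chil3 passed the filter only through KD, and Ltf, Lyz2 and Ncf1 would not have passed it through WT alone. A higher value was thus built into their selection, and these calls are a description. Their summed level was 41.0 to 55.2 CPM in WT and 61.5 to 67.7 CPM in KD, most of it Cd68, with 1397 to 1925 counts in any library. Ltf (lactoferrin) had 8, 10 and 14 counts in WT and 204, 174 and 184 in KD. Lyz2 had 33, 52 and 5 against 249, 250 and 247 counts, and Cd74 had 46, 29 and 30 against 127, 94 and 151. The other genes called higher were Ncf1, at 9, 5 and 2 against 22, 12 and 23 counts, and Chil3, at 0, 0 and 0 against 20, 14 and 13. The neutrophil receptor genes were counted only in KD and were too low to test. Csf3r had 0, 0 and 0 counts in WT and 8, 5 and 6 in KD, and Cxcr2 0, 0 and 0 against 3, 2 and 2. Ptprc (CD45) had 12, 5 and 5 counts in WT and 13, 8 and 8 in KD. In all, 8 of the 25 genes had no count in any WT library (Csf3r, Cxcr2, Mpo, Camp, Retnlg, Mmp8, Chil3 and Trem1), while others were counted there at low levels, such as Itgam (8, 10 and 3) and Fcer1g (9, 13 and 6). The part of such cells in the rise of S100a8 and S100a9 was not tested.

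Genes of lung and kidney, a list drawn from an earlier look at these counts, differed widely between the groups. Since the list was picked for this difference, and 12 of its 20 genes had no count in WT and so could pass the filter only through KD, its calls (15 higher among 18 tested, where 10.2% of all tested genes were called higher) are a description and carry no test. At the adjusted p threshold 17 were higher and 1 was lower, against 36.7% each way over all tested genes. The lower one was the kidney gene Cubn, with 315, 315 and 307 counts in WT and 251, 215 and 223 in KD (log2 fold change -0.45, adjusted p = 0.0037). The summed level was 18.5 to 21.3 CPM in WT and 125 to 131 CPM in KD. Scgb1a1, the secretory protein of airway club cells, had no count in any WT library and 1516, 1586 and 1843 counts in KD. Sftpc, a surfactant protein of alveolar type 2 cells, had none in WT and 520, 561 and 589 counts in KD, and Kap, a kidney proximal tubule gene, had none in WT and 466, 311 and 410 in KD. Markers of other tissues such as Scgb1a1, Sftpc and Kap moved with S100a8, S100a9, S100a16, S100g and Ager, and their part in those rises was not tested.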

How the data were processed

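RNA-seq was performed on 3 WT and 3 LINC00115 KD samples. The authors deposited raw gene counts, not normalized. Per the labels, the submitters' processing notes name HISAT2, featureCounts, DESeq2 and hg38, whereas the study's methods give mapping with HISAT2 to hg19. Annotation and strand setting are not given in the sources used here. Gene symbols are in mouse style, so no coordinates or sequences are given.

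From the counts, genes were kept by edgeR's filterByExpr (minimum count 10, minimum total 15), scaled by TMM (trimmed mean of M values) and tested with edgeR 4.0.16 in R 4.3.3 (quasi-likelihood, group only, two-sided, Benjamini-Hochberg over all 13497 genes). Calls needed adjusted p under 0.05 and, as in the study, fold change over 2. CPM were computed with TMM-scaled library sizes. Library totals were 36979221 to 38799331 counts. Intervals are at 95%, and exact ones cover counting error only. The script was tested on simulated data for this comparison: over 13491 genes, all 200 genes given a change were called, with 11 false calls. Same-numbered libraries did not deviate together (correlations 0.014, -0.019 and -0.02). Alternatives were other scalings and filters, DESeq2 1.42.0, a test against 1.5-fold, a replicate block and leaving out each library. For genes outside the family, leave-one-out fits and scalings were added after the data were seen.

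Members and gene lists were chosen with earlier results of these data known. All 10 members, other S100 genes and the partners Anxa1, Anxa2, Anxa6, Anxa11, Ahnak, Cacybp, Myh9, Ager, Tlr4, Bsg, Fgf1 and Il1a were named whatever their change. From each other list, up to 6 genes past both thresholds were eligible by size of change, if the higher group's libraries all reached 30 counts. Lce and Sprr genes, Vim, Cd44, Fn1, Axl, Zeb1, Cdh2, Gata3, Pgr, Foxa1, Cdh1, Epcam, Krt19, Aldh1a3, Cd68, Ptprc, Csf3r, Cxcr2, Mpo, Camp, Mmp8, Retnlg, Trem1, Chil3, Ncf1, Itgam, Fcer1g, Krt8, Krt18, Krt16, Pgm1, Hltf, Tmod3, Sugt1, Cxcl5, Il1b, Defb1, Pglyrp1 and Cubn and the genes particular to WT replicate 3 were named after their values were seen. Some genes eligible by this rule are not reported here.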

Additional observations from a re-analysis of the deposited data

How the results depend on the processing

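All values of the 10 genes kept their direction and their side of the adjusted p threshold in 129 of 129 refits, covering 13 alternatives, apart from 1 that could not be made, since S100a9 has no value where at least 10 counts are required in every library. There the genes past both thresholds were 4 rather than 5 and those higher were 2 rather than 3. By the test against a 1.5-fold change, 5 genes passed. Replicate numbers did not pair the libraries, and with the number as a block the counts were 5 past both thresholds, 6 lower and 3 higher, with 1316 of all genes called lower and 1360 higher. Without single libraries, log2 fold changes ranged from -0.31 to -0.21 for S100a13, whose highest adjusted p was 0.047, from -1.24 to -1.17 for S100a4 and from 3.58 to 3.74 for S100a16. That of S100a9 ranged from 5.63 to 8.80, the latter without WT replicate 3, and depends on the prior count. The log2 ratio of S100a10 to Anxa2, KD over WT, was 0.0041 and ranged from -0.0229 (without WT replicate 1, a change of sign) to 0.0273 without single libraries, all within the spread of WT. Over all genes, 3363 were called with no filter and 1822 with at least 10 counts in every library, against 2728. Under other scalings, annexins had 2 or 3 lower and 5 or 6 higher, and other EF-hand genes 13 to 15 lower and 3 or 4 higher. Counts near 0, as for S100a9, S100a5 and S100g, limit the size of change that can be given.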
